A study of Mus musculus with 8 samples.

Results

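The mitochondrial ribosomal proteins were followed here in RNA sequencing of P3 cortex from 4 dcKO_hGFAP-Cre and 4 control mice. Protein-coding mouse genes whose symbol begins with Mrpl or Mrps and a digit were taken as members, which gave 78 of the 48709 genes in the count tables. Of these, 51 encode proteins of the large subunit, 26 encode proteins of the small subunit, and Mrps36 encodes a protein that keeps its ribosomal name but works in the oxoglutarate dehydrogenase complex. Mrps18a and Mrps30, despite their names, belong to the large subunit and were counted there. The dcKO_hGFAP-Cre mice were BAF155 fl/fl; BAF170 fl/fl; hGFAP-Cre pos/+, so that Cre under a human GFAP promoter removes both scaffold subunits of the BAF chromatin remodeling complex in radial glia of the dorsal telencephalon and in the cells born from them. The study's methods give the controls as BAF155 fl/+; BAF170 fl/+ mice that also carry Cre, whereas the series text and the sample titles name them wild type, and which is right could not be settled here. Both groups were on a C57BL/6J background, and their age was postnatal day 3. Cells that do not descend from Cre-expressing radial glia keep both genes, so the bulk tissue of a mutant is a mixture of deleted and undeleted cells. In such tissue a change in the number of cells of a type and a change in RNA per cell cannot be told apart.

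The mitoribosome is the ribosome inside the mitochondrial matrix. It translates only the few messenger RNAs of the mitochondrial genome, which encode core subunits of the respiratory chain and of ATP synthase. Its ribosomal RNAs come from the mitochondrial genome, but all of its proteins are encoded in the nucleus, made in the cytosol and imported. Many of these proteins descend from bacterial ribosomal proteins, and the others are found only in mitochondria.

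A minority of the mitochondrial ribosomal protein transcripts were moderately higher in dcKO_hGFAP-Cre cortex, and most did not pass the test. Of the 77 members that passed the filter on low counts, 26 were higher at an adjusted p under 0.05, which is 33.8%, beside 18.6% of all 16525 genes tested. None was lower, beside 18.9% of all genes. At an unadjusted p under 0.05 (edgeR) none was lower either, beside 3803 of all genes tested. With DESeq2 all 26 passed as well, and no member was lower. The changes were small: the 26 higher members ranged from 1.20-fold to 1.67-fold with a median of 1.34-fold, and none of the 77 reached an absolute log2 fold change of 1, which 7.92% of all genes did. The log2 fold change was above 0 in 69 of the 77 members (89.6%), beside 52.4% of all genes. Its median was 0.24, compared with 0.02 over all genes. Standard errors of the log2 fold changes ran from 0.08 to 0.21 with a median of 0.11, so that many single members with a positive value could not be separated from no change at 4 mice against 4. In 19 members (24.7%) every mutant lay above every control, beside 16.7% of all genes, and in none did every mutant lie below, beside 17.7% of all genes. Of these 19, Mrps5 and Mrpl22 did not pass the adjusted threshold, with adjusted p of 0.0527 and 0.0865 (edgeR); both were singled out after their values were seen. The remaining member, Mrpl53, was not tested because it held only 1 to 8 counts per library, and its annotated exons share bases with other genes.

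**Figure D1:**
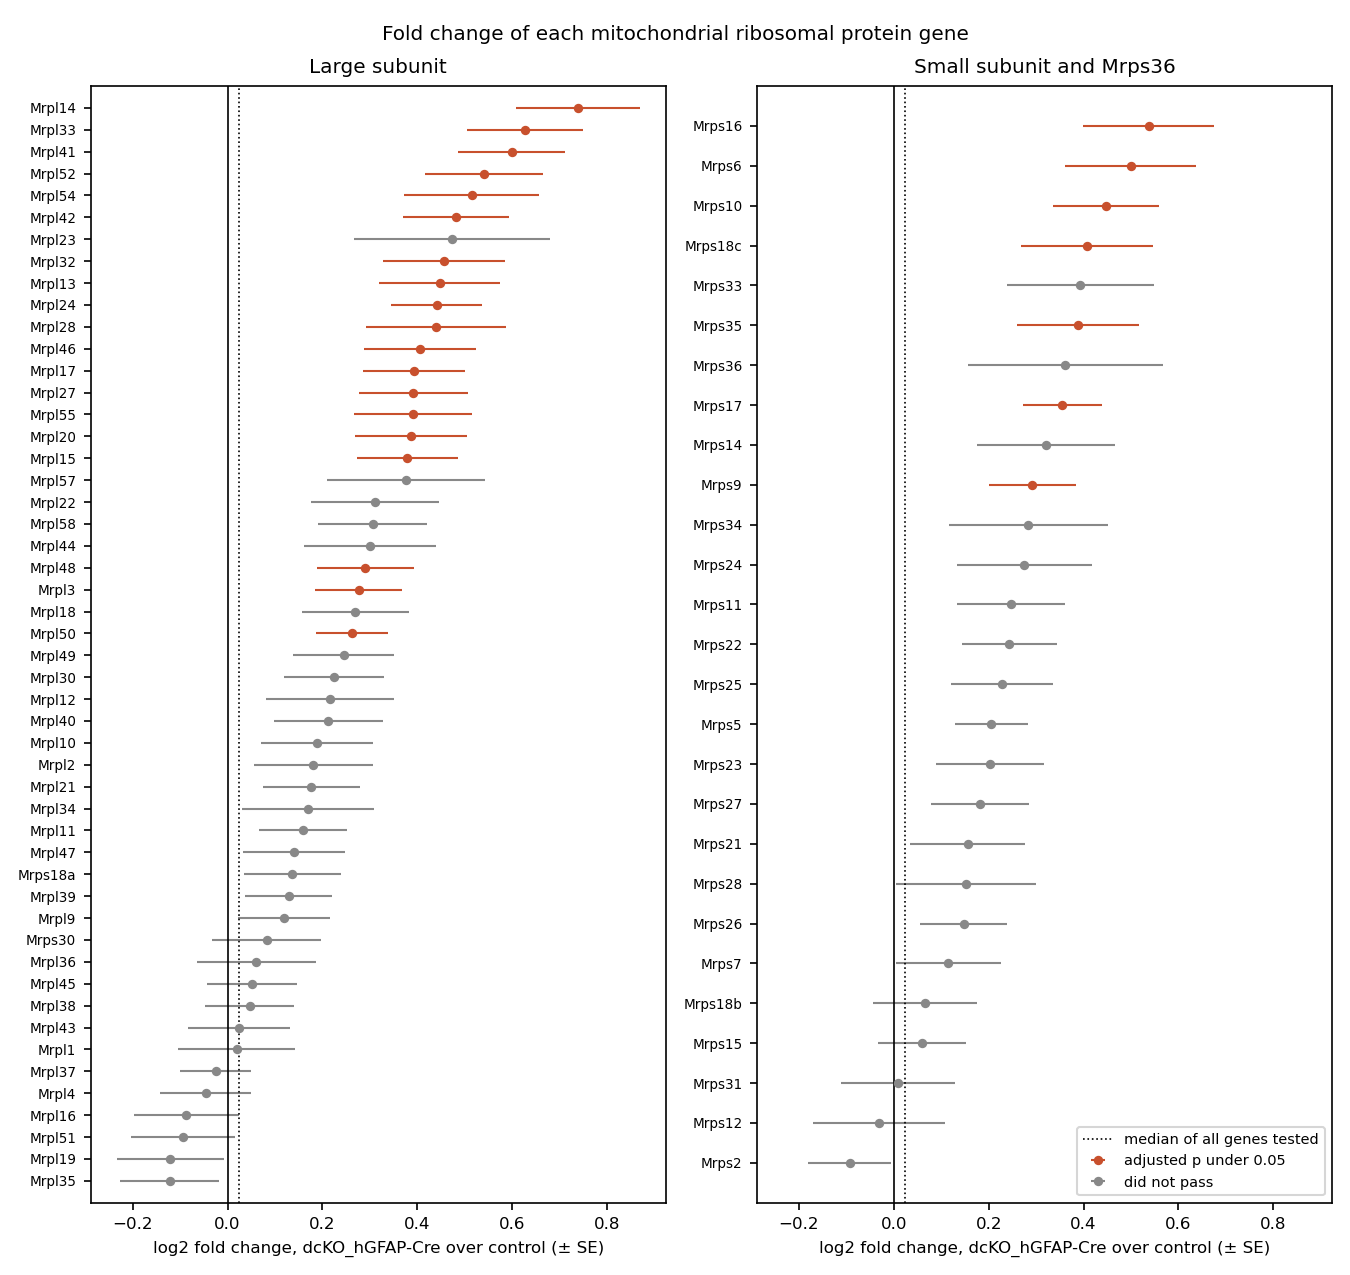
Log2 fold change of dcKO_hGFAP-Cre over control (x axis, points ± SE) for each of the 77 tested members (y axis), split into the large subunit and the small subunit with Mrps36. Orange points mark the 26 members with an adjusted p under 0.05, all to the right of 0, and the dotted line is the median of all genes tested, 0.02.

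The mutant libraries did not share this difference equally. Summed over members, the level was 2185, 2089, 2247 and 2484 CPM (counts divided by the library total times edgeR's TMM factor, so that the sum over all genes still differs between libraries) in control replicates 1 to 4. In dcKO_hGFAP-Cre replicates 1 to 4 it was 2507, 2850, 2963 and 2338 CPM. Replicates 1 to 3 of the mutants lay above all controls, and mutant replicate 4 lay inside the control range on this scale. As a share of raw counts, members took 0.241% in mutant replicate 4, above every control (at most 0.234%). Mutant replicate 4 was the lowest mutant in 63 of the 77 members, and control replicate 4 was the highest control in 63. Both were sequenced on lane 7, mutant and control replicate 3 on lane 6, and replicates 1 and 2 on lane 5. Within lane 6, all 77 members were higher in the mutant, with a median log2 difference of 0.40. Within lane 5, where 2 mutants meet 2 controls, 69 members were higher, with a median log2 fold change of 0.32, and 22 passed edgeR's test. The count over all genes in lane 5 is given in the last paragraph. Both lane 5 mutants were rich in the choroid plexus gene Ttr, at 584 and 1128 CPM. Within lane 7 only 25 of the 77 were higher, with a median log2 difference of -0.10. Of the 26 members called higher, 19 were higher there with a median of 0.05. The fit that called these 26 includes both lane 7 libraries, so their lane 7 values are not independent of the call. Lanes 6 and 7 hold 1 mouse per group, so they give values and no test. Without mutant replicate 4, all 26 of them still passed. Without control replicate 2, control replicate 3 or mutant replicate 2, 15, 16 and 15 of the 26 still passed. In these fits, in that order, 71, 68, 69 and 65 members were above 0. The median log2 fold change over all genes was 0.04, 0.02, 0.03 and 0.01.

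**Figure D2:**
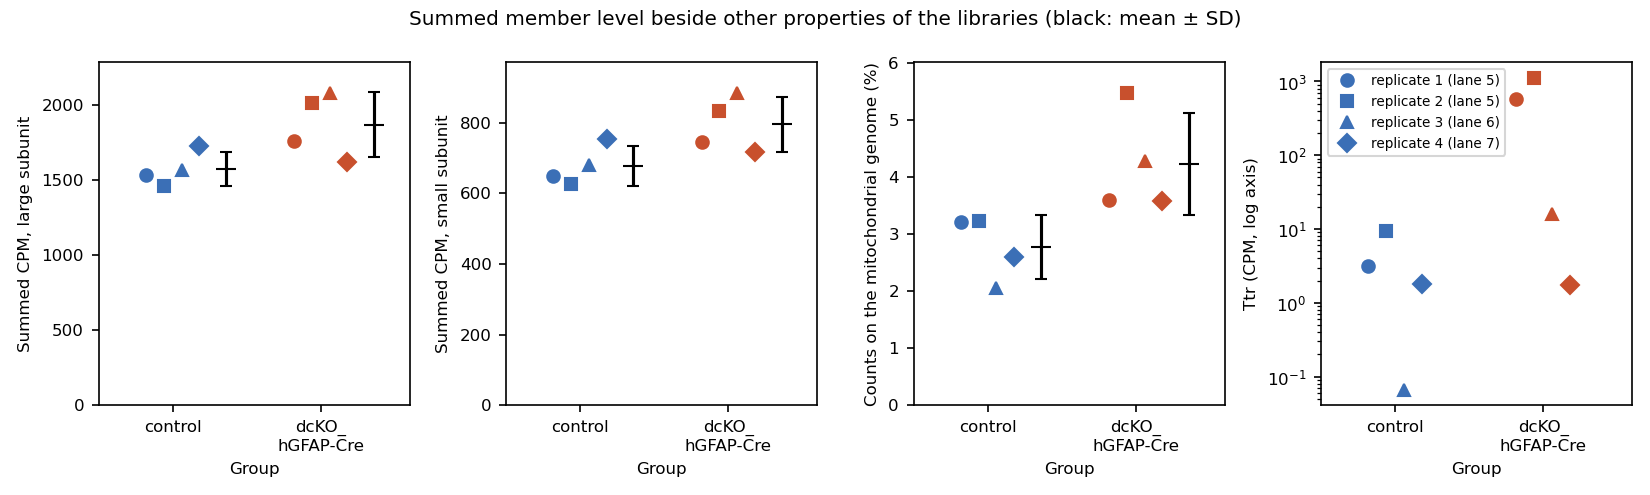
Each point is 1 library, with its replicate shown by shape and its lane in the key, and black bars are the group mean ± SD (4 libraries per group). The first 2 panels show the summed CPM of large and small subunit members, the third the share of counts on the mitochondrial genome, and the fourth Ttr on a log axis. On this TMM scale mutant replicate 4 lies within the control range of both sums, and Ttr is highest in mutant replicates 1 and 2.

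Other properties of the libraries moved with the groups. Smarcc1 and Smarcc2, the genes for BAF155 and BAF170, fell with log2 fold changes of -0.97 and -0.77, and no mutant overlapped a control. Total counts were 21126713 to 31805395 in controls and 22002784 to 32110285 in mutants. All members together took 0.201% to 0.234% of the raw counts in controls and 0.241% to 0.307% in mutants. Among markers of other tissue, the 10 choroid plexus genes summed to 6.04 to 15.1 CPM in controls and to 10.4 to 1197 CPM in mutants, and 3 of the 8 tested were higher. The choroid plexus gene Ttr, which encodes transthyretin, was at 584, 1128, 15.8 and 1.72 CPM in mutant replicates 1 to 4 and at 0.0664 to 9.37 CPM in controls. Kcnj13 was the 1 marker of that list at 0 in a library, control replicate 2. Mutant replicate 3, with little Ttr, held the highest summed member level. It also stood apart in the 10 radial glia and astrocyte markers, which summed to 2905 CPM there, to 1288 to 1693 CPM in the other mutants and to 1819 to 1871 CPM in controls. Gfap, an astrocyte filament protein, was at 24.2, 32.2, 273 and 26.2 CPM in mutant replicates 1 to 4 and at 79.3 to 89.5 CPM in controls. Without mutant replicate 3, 64 members were above 0 and 20 of the 26 called higher still passed. The median over members was 0.19 there, beside 0.02 over all genes. With the 2 Ttr-rich mutants left out, 8 of the 77 members passed (Mrpl14, Mrpl24, Mrpl33, Mrpl41, Mrpl42, Mrpl52, Mrps6 and Mrps17), and the median over members was 0.22. Of the 16525 genes of the main test, 1342 were higher and 1567 lower in that fit, with a median of 0.01. Cell type markers of the cortex were present. The cortical excitatory neuron list was lower in 8 of 10 genes and the oligodendrocyte list in 10 of 10, whereas inhibitory neuron markers were higher in 8 of 9, striatal neuron markers in 6 of 10, microglial markers in 8 of 10 and cycling cell markers in 4 of 10. Endothelial markers were lower in 3 of 8, and none of 6 erythroid markers passed. Radial glia and astrocyte markers were higher in 2 of 10, with a median of -0.04. Over all genes 18.6% were higher and 18.9% lower, and the 2 of 10 is near that share. What part the cell types behind these markers have in the member values was not tested.

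The start regions of the members were compared for sequence that these genes share. NRF1, the GABP and other ETS factors, and YY1 are known as regulators of nuclear genes for mitochondrial proteins. RefSeq promoter windows of 300 bases (250 before to 50 after a start) were found for 69 of the 78 members, 75 windows in all. The NRF1 word GCATGCGC was in 10.7% of the member windows on either strand, beside 2.71% of all 32851 windows and 3.67% of those of coding genes. For the ETS word CCGGAAG the shares were 34.7%, 8.86% and 11.9%. For the YY1 word AAGATGGC, which can span the start codon of a gene, the shares were 16.0%, 2.75% and 3.11%. The NRF1 word and its reverse complement can overlap, and such a pair was counted as 1 window. At least 1 of the 3 words was present for 10 of the 22 higher members with a window and for 28 of the 47 other members. The MYC E box CACGTG was in 9.33% of the member windows and 7.15% of all windows, and TATAAA was in 6.67% and 13.6%. A match is a description of these letters and not evidence of binding.

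The 8 stretches below run from 100 bases before to 50 after a RefSeq start (GRCm38.p6), 5′ to 3′ on the strand of the gene, with the letters of the 3 words in capitals. The first 5 belong to members that were higher, chosen from the largest rises, and the last 3 to members that did not pass, so that the same words can be seen on both sides. Mrpl14, with the largest rise, held none of the words, and Mrpl32 held the NRF1 word at 3 places. Mrpl41, Mrps6 and Mrps10, also among the largest rises, held none and are not shown, so the stretches shown lean towards those with a word. Mrps16 has a second RefSeq start, whose stretch (20393585 to 20393734) held none.
Mrpl14, chr17:45686249-45686398, + strand: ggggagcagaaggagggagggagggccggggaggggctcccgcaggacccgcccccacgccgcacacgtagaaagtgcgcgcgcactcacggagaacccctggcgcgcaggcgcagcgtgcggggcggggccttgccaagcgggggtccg
Mrpl33, chr5:31613851-31614000, + strand: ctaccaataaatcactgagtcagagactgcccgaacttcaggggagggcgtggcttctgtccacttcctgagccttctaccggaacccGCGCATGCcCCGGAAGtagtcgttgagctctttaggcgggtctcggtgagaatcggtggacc
Mrpl32, chr13:14612988-14613137, - strand: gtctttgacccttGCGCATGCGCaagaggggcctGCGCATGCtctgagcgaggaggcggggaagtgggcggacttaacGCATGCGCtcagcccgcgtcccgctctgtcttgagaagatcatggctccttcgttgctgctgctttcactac
Mrps16, chr14:20393441-20393590, - strand: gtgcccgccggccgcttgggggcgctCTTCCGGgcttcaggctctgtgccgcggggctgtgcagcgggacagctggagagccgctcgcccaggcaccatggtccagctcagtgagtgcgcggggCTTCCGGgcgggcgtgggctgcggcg
Mrpl42, chr10:95501900-95502049, - strand: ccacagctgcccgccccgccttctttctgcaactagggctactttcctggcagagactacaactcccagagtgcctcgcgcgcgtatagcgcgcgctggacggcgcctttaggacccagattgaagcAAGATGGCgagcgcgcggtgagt
Mrpl22, chr11:58171564-58171713, + strand: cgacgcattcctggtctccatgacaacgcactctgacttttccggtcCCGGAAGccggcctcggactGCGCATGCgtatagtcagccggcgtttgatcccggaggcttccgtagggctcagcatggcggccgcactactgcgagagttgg
Mrps18a, chr17:46110904-46111053, + strand: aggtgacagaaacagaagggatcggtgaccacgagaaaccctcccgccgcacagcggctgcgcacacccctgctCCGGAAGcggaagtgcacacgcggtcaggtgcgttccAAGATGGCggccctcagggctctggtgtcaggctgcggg
Mrpl35, chr6:71823735-71823884, - strand: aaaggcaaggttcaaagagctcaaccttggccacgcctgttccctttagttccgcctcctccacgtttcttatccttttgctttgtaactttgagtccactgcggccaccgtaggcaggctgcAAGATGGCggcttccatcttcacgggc

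Some members also sit next to another gene that starts on the opposite strand. A protein-coding start lay within 1000 bases on the other strand for 33 of the 78 members. The share of all genes with such a neighbour was not counted. Of the 10 such members that were higher, the neighbour was higher for 2, lower for 2 and did not pass for 6. Of all 32 neighbours tested, 7 were higher and 4 lower. Over all genes 18.6% were higher and 18.9% lower, and the 2 of 10 is near those shares. Mrpl32 and Psma2, a proteasome subunit whose start lies 75 bases away, were both higher, with log2 fold changes of 0.46 and 0.31. Mrpl50 was higher by 0.26 whereas its neighbour Zfp189, 83 bases away, was lower by log2 -0.59. Mrpl46 and Mrps11 are themselves such a pair, 1 gene for each subunit, with starts 412 bases apart and exons that share 173 bases. Mrpl46 passed (log2 fold change 0.41 ± 0.12, adjusted p = 0.0169 in edgeR) and Mrps11 did not (0.25 ± 0.11, adjusted p = 0.104), and the difference between them was not tested. Without a stated strand setting, the reads of their shared bases cannot be assigned to either.

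Among large subunit proteins, 19 of the 50 tested (38%) were higher, beside 18.6% of all genes, with a median log2 fold change of 0.25. With an offset for GC content and length in the fit, 12 were higher, beside 19.0% of all genes. Mrpl14 (ENSMUSG00000023939, chromosome 17, 45686322 to 45698495 on the plus strand in mm10) encodes the protein on the subunit interface to which the anti-association factor MALSU1 binds. It was at 12.2, 11.7, 14.0 and 16.8 CPM in control replicates 1 to 4 and at 21.6, 24.2, 25.3 and 20.5 CPM in mutant replicates 1 to 4. Every mutant lay above every control, mutant replicate 4 included. Its log2 fold change of 0.74 ± 0.13 (SE, adjusted p = 0.000975, edgeR) was the largest of the 77, and the exact permutation p was 0.0286, the smallest that 4 against 4 allows. Its annotated exons share 106 bases with those of Tmem63b on the other strand. Mrpl33 (chromosome 5, 31596935 to 31664384), which has a bacterial relative, was at 20.1, 14.9, 15.8 and 18.6 CPM in controls and 24.3, 30.6, 28.1 and 24.1 CPM in mutants. The groups did not overlap, and the log2 fold change was 0.63 ± 0.12 (adjusted p = 0.00194, edgeR). Mrpl41 (chromosome 2, 24974117 to 24975098), which has no bacterial counterpart, was at 29.6, 26.5, 28.5 and 34.3 CPM in controls and 43.4, 51.1, 48.1 and 37.8 CPM in mutants. Here too no mutant fell among the controls, and the log2 fold change was 0.60 ± 0.11 (adjusted p = 0.0015, edgeR).

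Further members of the large subunit followed with smaller steps. Mrpl52, found only in mitochondria, was at 32.8, 29.2, 35.6 and 41.5 CPM in controls and 46.1, 58.0, 55.3 and 43.2 CPM in mutants, a log2 fold change of 0.54 ± 0.12 (adjusted p = 0.0051). Mrpl42, also without a bacterial relative, was at 24.3, 24.6, 23.7 and 27.6 CPM in controls and 33, 36.5, 41.1 and 29.4 CPM in mutants (0.48 ± 0.11, adjusted p = 0.00505). In both genes the groups were apart, with mutant replicate 4 closest to the controls. Mrpl54, another mitochondrion-specific protein, was at 19.0, 16.4, 20.8 and 23.5 CPM in controls and 25.3, 33.5, 32.1 and 23.2 CPM in mutants. Its mutant replicate 4 fell just below control replicate 4, and the log2 fold change was 0.52 ± 0.14 (adjusted p = 0.0136). Mrpl32, which the inner membrane m-AAA protease processes before it joins the ribosome, was at 13.7, 14.2, 14.9 and 19.6 CPM in controls and 20.3, 23.6, 22.2 and 19.6 CPM in mutants. Control replicate 4 and mutant replicate 4 were nearly level, and the log2 fold change was 0.46 ± 0.13 (adjusted p = 0.015). Mrpl24 stood out in another way after its values were seen. It was at 17.8, 17.3, 16.6 and 18.7 CPM in controls and 22.2, 22.6, 26 and 24.7 CPM in mutants, so that its mutant replicate 4 was not near the controls (0.44 ± 0.10, adjusted p = 0.00378).

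Among small subunit proteins, 7 of 26 (26.9%) were higher, beside 18.6% of all genes, with a median log2 fold change of 0.24. With an offset for GC content and length, 7 were higher, beside 19.0% of all genes. Mrps16 (chromosome 14, 20389304 to 20393634), a protein of the subunit body with a bacterial relative, was at 15.1, 17.3, 17.3 and 20.3 CPM in controls and 24.4, 25.6, 31.5 and 20.3 CPM in mutants. The lowest mutant lay only just above the highest control, and the log2 fold change was 0.54 ± 0.14 (adjusted p = 0.00928). Mrps10 (chromosome 17, 47368887 to 47381417), of the subunit head, was at 22.8, 20.2, 17.9 and 24.0 CPM in controls and 27, 32.0, 27.3 and 29.4 CPM in mutants. All mutants exceeded all controls (0.45 ± 0.11, adjusted p = 0.00763). Mrps6 was at 20.6, 21.5, 26 and 30.1 CPM in controls and 29.4, 37.8, 40.2 and 31.6 CPM in mutants (0.50 ± 0.14, adjusted p = 0.0135). Mutant replicate 1 of Mrps6 lay below control replicate 4, and 464 of its exon bases are shared with other genes, Slc5a3 among them. The remaining small subunit members that rose were Mrps18c, Mrps35, Mrps17 and Mrps9, with log2 fold changes from 0.29 to 0.41.

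**Figure D3:**
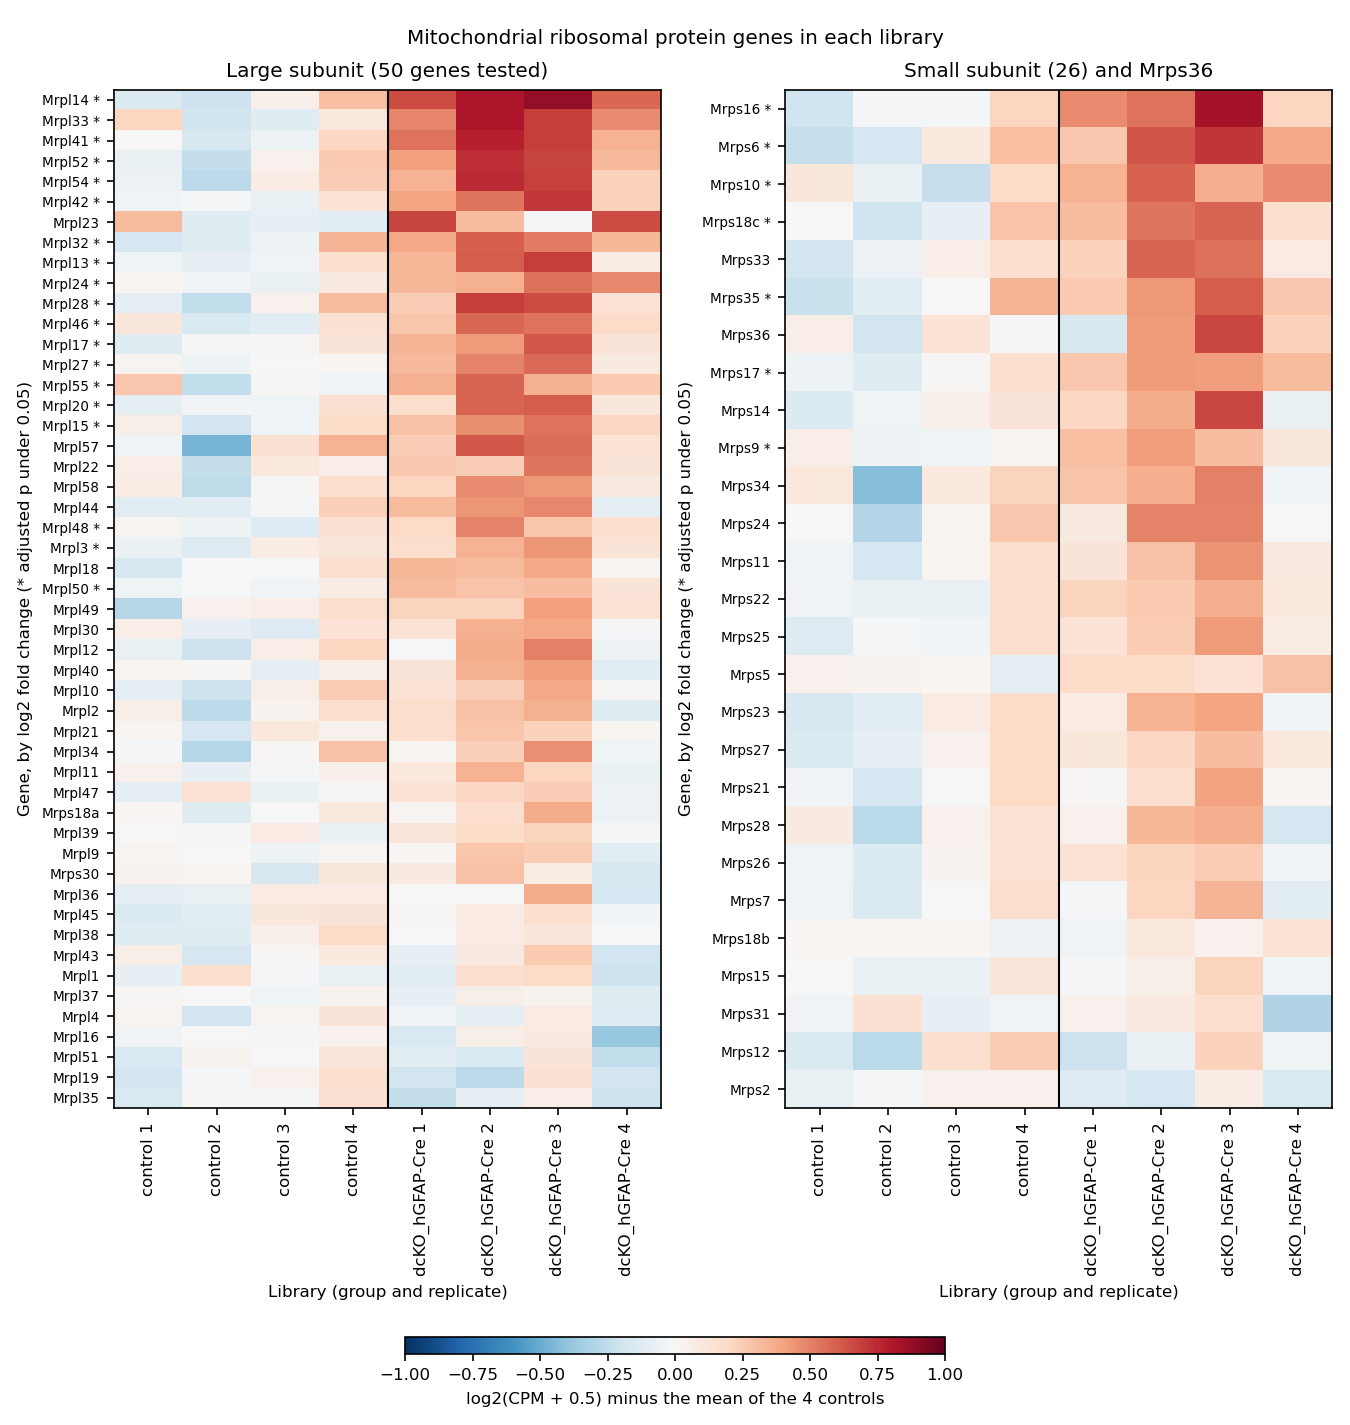
Colour gives log2(CPM + 0.5) of each tested member (y axis, ordered by log2 fold change) in each library (x axis) minus the mean of the 4 controls, and * marks an adjusted p under 0.05. Mutant replicate 3 is the darkest column, highest of the mutants in 53 of 77 members, and mutant replicate 4 is the palest, lowest in 63.

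The 3 Mrps18 paralogs occupy different places in the mitoribosome, Mrps18c as the relative of bacterial S18 in the small subunit, Mrps18b elsewhere in the small subunit, and Mrps18a in the large subunit. Mrps18c was at 12, 10.3, 11.2 and 14.6 CPM in controls and 14.9, 17.5, 18.1 and 13.4 CPM in mutants. With a log2 fold change of 0.41 ± 0.14 it passed (adjusted p = 0.0363), though mutant replicate 4 lay below control replicate 4, and with an offset for transcript length and GC content it no longer passed (0.05, adjusted p = 0.747). Mrps18a was at 41.3, 37.5, 40.7 and 43.5 CPM in controls and 41.6, 45.9, 52.7 and 39.2 CPM in mutants (0.14 ± 0.10, adjusted p = 0.311). For Mrps18b the values were 9.30, 9.27, 9.30 and 8.75 CPM in controls and 8.89, 9.87, 9.42 and 10.1 CPM in mutants (0.07 ± 0.11, adjusted p = 0.668), and its sign turned with the offset (-0.16). The groups overlapped for all 3 paralogs.

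Several proteins with a defined place or task were looked at whatever their values, and none of the 7 below passed. Mrpl58, a peptidyl-tRNA hydrolase that became part of the large subunit, came closest. It was at 37.1, 29.5, 35.6 and 39.8 CPM in controls and 41, 49.3, 48.0 and 37.6 CPM in mutants (0.31 ± 0.12, adjusted p = 0.0527), and with the offset it passed (0.29, adjusted p = 0.0457). The stalk recruits translation factors to the ribosome. The log2 fold change was 0.22 ± 0.14 for its protein Mrpl12 (adjusted p = 0.227), 0.19 ± 0.12 for Mrpl10 at its base (adjusted p = 0.225) and 0.16 ± 0.09 for the neighbouring Mrpl11 (adjusted p = 0.196). Mrps12, at the decoding center, was at 18.3, 16.7, 22.7 and 24.3 CPM in controls and 17.4, 19.3, 23.9 and 19.7 CPM in mutants, with no separation between groups (-0.03 ± 0.14, adjusted p = 0.876). Under library totals the Mrps12 value was 0.09, and with the offset it was -0.28 (adjusted p = 0.081). Mrps30 of the large subunit was at 20.9, 20.7, 18.2 and 22.1 CPM in controls and 21.8, 25.2, 21.6 and 18.3 CPM in mutants (0.08 ± 0.11, adjusted p = 0.6), a value that was -0.004 without mutant replicate 2. Mrps36, of the oxoglutarate dehydrogenase complex, was at 3.13, 2.56, 3.32 and 2.92 CPM in controls and 2.61, 4.15, 5.01 and 3.56 CPM in mutants (0.36 ± 0.21, adjusted p = 0.183). It has 3 annotated pseudogenes, so reads of near-identical copies are uncertain for it.

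The largest log2 fold change among members that did not pass was that of Mrpl23, 0.47 ± 0.21 (adjusted p = 0.0897), on only 60 to 179 counts per library. Mrps33 (0.39), Mrpl57 (0.38) and Mrps14 (0.32) followed, with adjusted p from 0.0619 to 0.101 and overlapping groups. At the other end, 8 members had a value below 0, with none past the threshold. The lowest were Mrpl35 and Mrpl19, both -0.12 with adjusted p of 0.381 and 0.422, picked out here after their values were seen. Mrpl35 was at 22.7, 25.5, 25.0 and 28.1 CPM in controls and 21.3, 23.6, 26.4 and 21.8 CPM in mutants, and its groups overlapped.

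Levels per length, in CPM per kb of annotated exon, differed widely between members, although all of these proteins but Mrps36 sit in 1 copy or a few copies per ribosome. In controls the median was 10.8 CPM per kb. Mrpl28 (44.7), Mrpl34 (42.7) and Mrpl20 (37.9) were highest, and Mrpl33 (2.37), Mrps36 (2.34) and Mrpl23 (0.675) were lowest. The exon length takes in every annotated transcript, so a gene with a long and rarely used exon has a low value on this scale. Of these 6, Mrpl28 (log2 fold change 0.44 ± 0.15, adjusted p = 0.0345), Mrpl20 (0.39 ± 0.12, adjusted p = 0.0219) and Mrpl33 passed, and Mrpl34 (0.17 ± 0.14, adjusted p = 0.359) did not. Across the 77 members, Pearson's r of log2 fold change with mean control CPM was -0.16 (Spearman's rho -0.22), given as a description since all genes share the same 8 libraries.

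Members were also counted by ancestry and position. The higher ones were 18 of 46 (39.1%) with a bacterial homologue (median log2 fold change 0.26) and 8 of 30 (26.7%) found only in mitochondria (0.24). The share over all genes was 18.6%. With an offset for GC content and length, 11 of the 46 and 8 of the 30 were higher, beside 19.0% of all genes. Of the 10 mitochondrion-specific small subunit members, 1 was higher, Mrps35. No test of these differences was made. Summed over genes, the large subunit level divided by the small subunit level stayed between 2.29 and 2.37 in controls and between 2.25 and 2.41 in mutants, and these ranges overlap. Members lie on 17 chromosomes, and the higher ones on 15 of them. Exon bases were shared with another annotated gene for 33 members. Among the 45 that share none, 16 were higher, with a median of 0.24.

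Transcript length moved with the fold changes over all genes. The median log2 fold change of all tested genes was 0.40 for longest transcripts under 1 kb, 0.18 for 1 to 2 kb and -0.04 for 2 kb or more. The share of all tested genes above 0 was 81.4%, 68.9% and 46.3% in these 3 classes, beside 93.8%, 100% and 81.1% of the members. The members are short, with a median longest transcript of 1884 bases against 3260 bases for all tested genes. With an offset in the fit for GC content and length, the median over members fell to 0.09 (all genes 0.03). Of the 77 members 56 stayed above 0, beside 8818 of all 16480 genes in that fit. Among members 19 (24.7%) were higher and none lower, beside 19.0% higher and 17.0% lower of all these genes. Of the 26 members called higher, 15 also passed with the offset, and Mrpl58, Mrps5, Mrps22 and Mrps25 passed only with it. The members under 1 kb went from 8 of 16 higher (median 0.37) to 3 (median 0.04). Those of 1 to 2 kb went from 4 of 24 (0.21) to 0 (0.05), 17 of them still above 0. Members of 2 kb or more went from 14 of 37 (0.24) to 16 (0.25), beside a median of -0.04 without and 0.03 with the offset for all genes of that length. Over all genes tested, the share higher without the offset was 30.4% under 1 kb, 25.9% for 1 to 2 kb and 16.0% for 2 kb or more, so that the members of 1 to 2 kb, at 16.7%, lay below their class. With the offset, 122 of the 1049 genes under 1 kb were higher, 438 of the 2791 of 1 to 2 kb and 2578 of the 12640 of 2 kb or more. Mrpl14 kept its call with the offset (0.45, adjusted p = 0.00493), as did Mrpl33 (0.60, adjusted p = 0.0026), Mrpl41 (0.30, adjusted p = 0.0109) and Mrps16 (0.51, adjusted p = 0.00948). Mrpl54 (0.22, adjusted p = 0.107), Mrps6 (0.27, adjusted p = 0.08), Mrpl24 (0.25, adjusted p = 0.0519), Mrpl20 (0.07, adjusted p = 0.566) and Mrpl28 (0.25, adjusted p = 0.0593) lost theirs, as did Mrpl27, Mrpl46, Mrpl50, Mrpl55, Mrps18c and Mrps9.

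**Figure D4:**
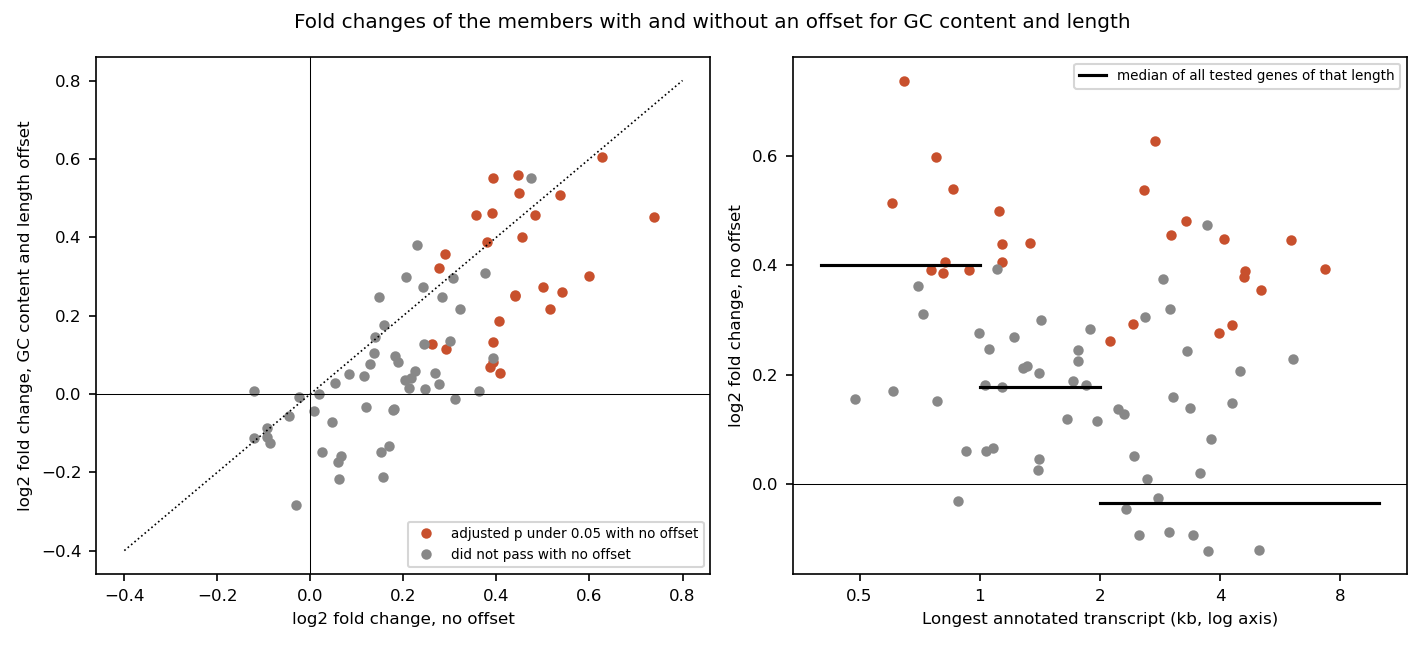
Left, log2 fold change of the 77 members without (x axis) and with (y axis) an offset for GC content and length, where the dotted line marks equal values. Right, log2 fold change without the offset (y axis) against the longest transcript in kb (x axis, log scale), with black lines at the medians of all tested genes, 0.40, 0.18 and -0.04. Short members lie near the line of their length class, and most members of 2 kb or more lie above theirs.

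Of the mitoribosomal proteins that carry other names, 3 of 5 were higher. Chchd1 of the small subunit was at 38.2, 36.7, 33.7 and 43.1 CPM in controls and 52.9, 60.6, 65.2 and 46.1 CPM in mutants (log2 fold change 0.57 ± 0.12, adjusted p = 0.00255). Ptcd3 (0.28 ± 0.09, adjusted p = 0.0235) and Aurkaip1 (0.32 ± 0.12, adjusted p = 0.048) also rose. With the offset none of the 3 passed, at 0.20 for Chchd1 (adjusted p = 0.085), 0.20 for Ptcd3 (adjusted p = 0.0629) and 0.11 for Aurkaip1 (adjusted p = 0.266). Dap3, the GTP-binding protein of the small subunit head, looked up after its value was seen, did not pass (-0.07 ± 0.07, adjusted p = 0.422).

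Counts on the mitochondrial ribosomal RNAs were higher as well. How well such counts follow the amount of ribosomal RNA depends on the RNA selection. The study's methods name the TruSeq RNA v2 kit and do not describe its selection step. These counts are therefore not taken as a measure of ribosomal RNA amount. mt-Rnr1, the RNA of the small subunit, was at 665, 968, 704 and 786 CPM in controls and 1081, 1644, 1505 and 1134 CPM in mutants (0.78 ± 0.16, adjusted p = 0.00375). mt-Rnr2, the RNA of the large subunit, was at 1289, 1349, 909 and 1152 CPM in controls and 1797, 2489, 1902 and 1897 CPM in mutants (0.78 ± 0.13, adjusted p = 0.00107). For both RNAs all mutants exceeded all controls, mutant replicate 4 included. With the offset, mt-Rnr2 still passed (0.40, adjusted p = 0.00595) and mt-Rnr1 did not (0.26, adjusted p = 0.168). The mitochondrial genome as a whole took 2.06% to 3.23% of counts in controls and 3.57% to 5.47% in mutants. Of its 13 protein genes, 7 could be tested and mt-Co1 alone passed (0.54 ± 0.18, adjusted p = 0.0382), while mt-Co2, mt-Co3, mt-Atp6, mt-Atp8 and mt-Nd4l are listed at 0 in every library.

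Factors that build the mitoribosome formed a list of 26 genes, of which 10 were higher and none lower, with a median log2 fold change of 0.09 (with the offset 8 higher and 1 lower). Mettl17, a factor of small subunit maturation, was at 40.7, 27.9, 25.5 and 28.1 CPM in controls and 55.7, 54.0, 42.6 and 54.8 CPM in mutants (0.76 ± 0.14, adjusted p = 0.00158). Mettl15 and Tfb1m, both methyltransferases of the small subunit RNA, had log2 fold changes of 0.76 ± 0.17 (adjusted p = 0.00438) and 0.74 ± 0.17 (adjusted p = 0.00419). Malsu1, whose product binds Mrpl14, had one of 0.60 ± 0.14 (adjusted p = 0.00461). In these 4 genes the groups did not overlap, and for Tfb1m mutant replicate 4 was the highest of all libraries, at 8.54 CPM.

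Of 15 translation factors and their partners, 5 were higher and none lower. Guf1, a GTPase that acts on the ribosome during elongation, had the largest change (0.75 ± 0.18, adjusted p = 0.00854), then the release factor family member Mtrf1 (0.54 ± 0.13, adjusted p = 0.0059), the RNA-binding protein Slirp (0.47 ± 0.12, adjusted p = 0.00841) and the recycling factor Gfm2 (0.29 ± 0.09, adjusted p = 0.0272). For Guf1 the groups overlapped, with mutant replicate 3 at 66.4 CPM below control replicate 1 at 69.9 CPM. Tufm, the elongation factor that brings in aminoacyl-tRNA, did not pass (-0.15 ± 0.14, adjusted p = 0.401). Among 17 mitochondrial aminoacyl-tRNA synthetases 6 were higher and 1 lower. Lars2 for leucine (0.87 ± 0.24, adjusted p = 0.0227), Cars2 for cysteine (0.47 ± 0.10, adjusted p = 0.0033), Rars2 for arginine (0.44 ± 0.10, adjusted p = 0.00465) and Hars2 for histidine (0.42 ± 0.09, adjusted p = 0.00411) led the rises, and Mars2 for methionine fell (-0.34 ± 0.11, adjusted p = 0.0248). The groups overlapped for Mars2 and for Lars2, where mutant replicate 4 at 763 CPM lay below control replicate 4 at 784 CPM. The groups were apart for Cars2, Rars2 and Hars2. Lars2 was counted at 403 to 784 CPM in controls, far above Mars2, the next highest of the 17, at 49.0 to 59.5 CPM. Whether reads from elsewhere add to the Lars2 counts was not tested.

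None of 4 genes of mitochondrial transcription passed, among them the polymerase Polrmt (0.13 ± 0.13, adjusted p = 0.459) and the DNA-packaging factor Tfam (0.09 ± 0.08, adjusted p = 0.385). In the list of 10 nuclear regulators none was higher and 3 were lower. Myc was at 66.8, 77.7, 75.2 and 75.0 CPM in controls and 37.7, 40.2, 48.0 and 34.8 CPM in mutants (-0.88 ± 0.10, adjusted p = 5.85e-05). Mycn (-0.66 ± 0.12, adjusted p = 0.00101) and Pprc1, a coactivator of the PGC family (-0.64 ± 0.20, adjusted p = 0.0283), also fell. The genes of the factors whose words were searched above, looked up after their values were seen, had log2 fold changes of -0.04 for Nrf1, -0.01 for Gabpa and -0.01 for Yy1, with adjusted p from 0.743 to 0.967. With the offset, Yy1 was higher (0.19, adjusted p = 0.0428), as was Ppargc1a (0.25, adjusted p = 0.027; 0.12, adjusted p = 0.275 without it), a coactivator of mitochondrial genes also named after its values were seen. Myc and Mycn stayed lower with the offset, and Pprc1 did not pass (-0.46, adjusted p = 0.0684).

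Other families are set beside the members here. Of the cytosolic ribosomal proteins, 55 of 80 were higher and none lower (median log2 fold change 0.52, with the offset 0.30 and 36 higher). Among nuclear-encoded respiratory chain subunits, 46 of 80 were higher and 1 lower (0.37, with the offset 0.12 and 22 higher). These medians are descriptions of the same libraries, and the differences between families were not tested.

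**Figure D5:**
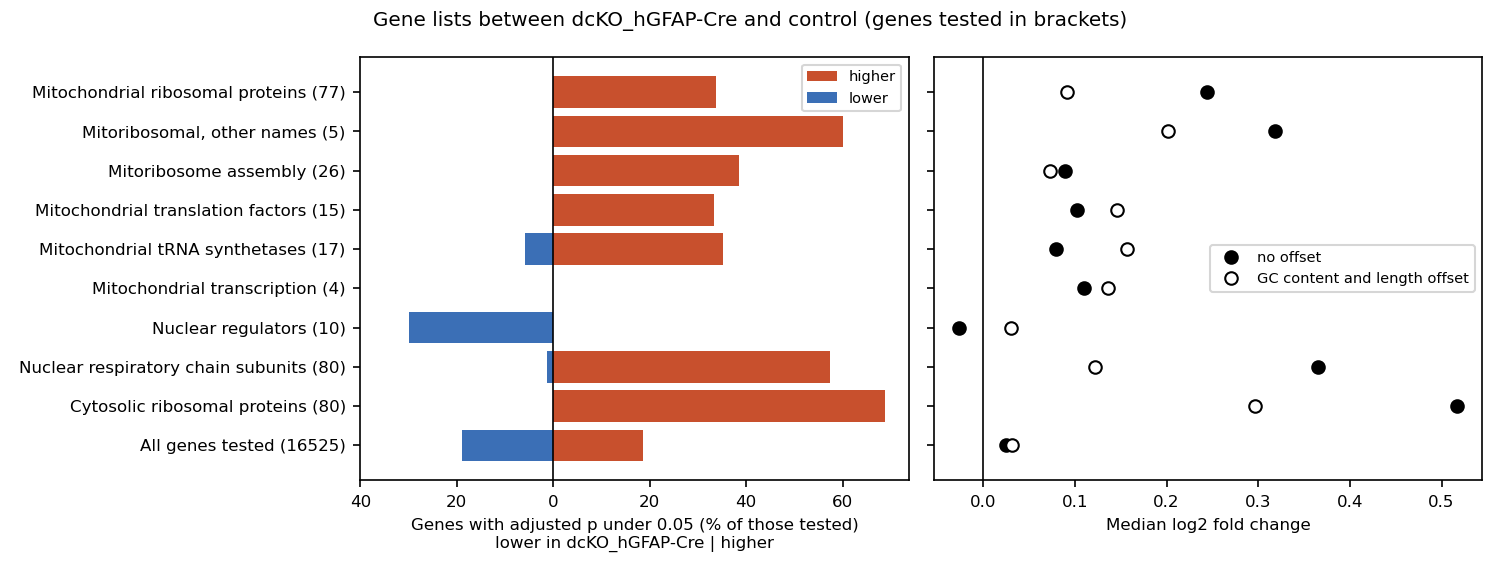
Left, share of tested genes in each list (number in brackets) with an adjusted p under 0.05, to the right where higher and to the left where lower in dcKO_hGFAP-Cre. Right, median log2 fold change of each list without (filled) and with (open) an offset for GC content and length. The members have 33.8% higher and none lower, and their median falls from 0.24 to 0.09 with the offset.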

How the data were processed

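RNA of 8 P3 cortices was sequenced with the TruSeq RNA v2 kit. The authors mapped the reads to mm10, used featureCounts to obtain a number per gene, and deposited these raw counts, whose total per library was 21126713 to 31805395 in controls and 22002784 to 32110285 in mutants. The aligner, annotation, strand setting and handling of multi-mapping reads are not given in the sources used here. Of 48709 identifiers, 48349 were matched to GENCODE M21 (GRCm38), and 30608 genes had at least 1 count. At this depth 3 counts equal up to 0.148 CPM, a limit for counting error only. The labels do not say that replicates are separate litters, so p-values measure the spread between these samples. No 2 replicates agreed within sampling noise.

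Samples were grouped by their titles. Counts were tested with edgeR's quasi-likelihood F test (version 4.0.16, R 4.3.3, TMM normalization, robust fit, minimum count 10, no block), adjusted by Benjamini-Hochberg over 16525 genes with a threshold of 0.05. Each standard error was the log2 fold change divided by the root of its F value. Exact two-sided permutation tests used the 70 arrangements of 4 against 4. Scripts were tested on simulated data. Alternatives were DESeq2 (1.42.0), limma-voom (3.58.1), other scaling, other filters, the replicate number or lane as a block, a GC content and length offset (longest transcript, known for 16480 genes), lane 5 alone, a threshold of 0.01, and each replicate left out. Chosen after seeing the data were 2 more, leaving out the 2 Ttr-rich mutants and leaving out genes of the mitochondrial genome.

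The members, the gene lists and the promoter words were chosen with earlier results of these data known. Named are the members with the 10 largest rises (no member fell), the 10 with a defined place or a confusing name (Mrps18a, Mrps18b, Mrps18c, Mrps36, Mrpl58, Mrps30, Mrpl12, Mrps12, Mrpl10, Mrpl11), the 3 highest and 3 lowest per length, and the 5 largest changes that did not pass. From other lists, up to 4 passing genes per direction are named, with Tufm, Tfam and Polrmt. The other genes named, such as Dap3, Nrf1, Gabpa, Yy1 and Ppargc1a, were chosen after their values were seen. Promoter windows were those of RefSeq (GRCm38.p6).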

Additional observations from a re-analysis of the deposited data

Results flagged for a closer look

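In Mrps18b, control replicate 4 was set apart below the other 3 controls, at 8.75 CPM against 9.27 to 9.30 CPM, a gap that makes up 0.947 of the group's range. In Mrpl23, control replicate 1 was set apart above the others, at 4.19 CPM against 2.96 to 3.05 CPM, a gap of 0.921 of the range. These 2 of 66 groups of 4 libraries passed Dixon's limit, where chance gives about 1 in 20, or 3.3. Without control replicate 1, Mrpl23 passed the adjusted threshold (log2 fold change 0.60, adjusted p = 0.0448, edgeR).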

How the results depend on the processing

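Across 27 named members and all alternatives, 516 values kept their direction and their side of the threshold, 42 lost the threshold, 23 gained it and 13 changed sign. The median log2 fold change of members was 0.092 with the GC content and length offset, 0.092 with the offset and replicate block, and 0.37 with library totals, a scaling that moved the median of all genes from 0.02 to 0.15. The count of higher members was 49 with library totals (4584 genes higher and 2102 lower over all genes). At a threshold of 0.01 it was 9 (1611 genes higher and 1938 lower over all genes). Without the 2 Ttr-rich mutants it was 8 (1388 higher and 1581 lower of the 17229 genes tested in that fit). With 1 replicate left out it was 15 to 41, given without the counts over all genes. Of the 26, 26 still passed without mutant replicate 4 and 15 without control replicate 2 or mutant replicate 2. Lane 5 alone gave 1951 higher genes of 16505 tested. Signs turned for Mrps18b (-0.16 with the offset, -0.16 with offset and block), Mrpl34 (-0.13 and -0.13), Mrps36 (-0.0069 with both), Mrps12 (0.058 in lane 5, 0.091 with library totals, 0.084 without the Ttr-rich mutants, 0.018 to 0.054 with 1 replicate left out) and Mrps30 (-0.0040 without mutant replicate 2, -0.042 without the Ttr-rich mutants). The causes were not tested. Same-numbered deviations from the group means correlated at 0.17, -0.07, 0.21 and -0.02, and those of other pairs at -0.31 to 0.25. These values cannot settle whether the replicate numbers pair the samples, since same-numbered samples also share a lane. With the replicate as a block 21 members were higher, and with block and offset 16 were higher and 1, Mrps12, lower (-0.28, adjusted p = 0.0381). DESeq2 gave 26, limma-voom 27 and no filter 24. Standard errors of 0.08 to 0.21 at 4 mice per group limit what can be called among small changes.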
